A study of Mus musculus with 8 samples.

Results

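The 10 genes described here, Des, Gfap, Lrat, Reln, Pdgfrb, Acta2, Rgs5, Hand2, Ngfr and Dcn, are used as markers of hepatic stellate cells and of neighbouring liver mesenchyme, and were chosen by name. All 10 were found among the 22059 genes of the deposited files and among the 17081 genes tested, and the lowest read count of any of them in any sample was 21. Hepatic stellate cells are the vitamin A-storing, perivascular mesenchymal cells of the liver. They lie between hepatocytes and the sinusoidal endothelium, hold retinyl esters in lipid droplets when quiescent, and turn into contractile, matrix-producing myofibroblasts when the liver is injured.

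The samples were whole livers of wild-type mice of the inbred strain FVB (FVB/NJ in the study's methods) at embryonic day 18 (E18), postnatal days 14 (P14) and 28 (P28) and in adults of 3 months. Each stage had 2 samples. No group carried a transgene, a deletion or a treatment, and the labels give neither sex nor litter. Poly(A)-selected RNA was sequenced, and each gene has 1 read count and 1 RPKM, the count divided by transcript length in kilobases and by mapped reads in units of 1000000, per sample. The labels do not say which samples came from separate animals. The study calls them biological duplicates, and p-values measure only the spread between these samples.

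Levels below are TMM-scaled RPKM, that is reads per kilobase and per 1000000 reads of a library size corrected with TMM, the scaling of edgeR that holds the bulk of genes level between samples. Levels are given as mean ± SD (n = 2). Changes are log2 fold changes, later minus earlier stage, from the edgeR quasi-likelihood fit, with Benjamini-Hochberg adjusted p-values over all genes tested. A gene passed the test at a false discovery rate (FDR) below 0.1, and was called higher or lower when it also changed more than 3-fold. Shares over all genes are given for calls alone. Counts of genes that passed the FDR only, or that were highest at a stage, have no such share beside them. Whole liver mixes many cell types, so fewer cells of a type and less RNA per cell cannot be told apart.

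Depth lay between 68154675 and 106055723 reads on genes per sample. TMM factors were 1.598 and 1.539 at E18 and between 0.847 and 0.888 later, so the scaling weighs on every comparison with E18. Scaling by library size alone moved the median gene by -0.85 (log2) from E18 to adult and by -0.87 from E18 to P14, and by 0.03 or less in either direction in the later intervals. Hepatocyte markers (Alb, Ttr, Apoa1 and 5 others) summed to 22440 and 23030 TMM-scaled RPKM at E18 and to 50430 or more in every later sample. Markers of blood-forming cells stood at 2303 and 3027 at E18 for the erythroid list and at no more than 34.8 later. The levels of the 10 mesenchymal genes summed to 89.7 and 76.2 in the E18 duplicates, 164.9 and 203.5 at P14, 145.5 and 149 in the P28 pair, and 129.1 and 127.1 in the adult pair. Dcn carried much of this sum. The other 9 genes summed to 58.8 and 47.6 in the E18 duplicates, and to 61.6 and 80.5 in the P14 pair. They summed to 41.8 and 41.2 in the P28 pair and to 32.2 and 32.6 in adult liver, below E18 at both stages. The lower sum was not a fall shared by these genes. From E18 to P28 the largest drops in level were those of Acta2 (19.5 and 13.6 to 1.47 and 2.19) and Gfap (5.06 and 8.62 to 0.0921 and 0.0756). Of all 10 genes, Dcn included, 5 passed the test upwards and 5 downwards over that span.

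Between E18 and P14, the number of these genes that passed the test upwards depended on the scaling. The share of all genes that passed the FDR alone is not given, so these counts are not set against a background. With TMM, 7 of 10 passed the test upwards (Lrat, Rgs5, Dcn, Ngfr, Hand2, Pdgfrb and Reln), 1 passed it downwards (Gfap), and Des and Acta2 passed in neither direction. With library size alone, 4 passed upwards (Lrat, Rgs5, Dcn and Ngfr), 3 passed downwards (Gfap, Des and Acta2), and the signs of Des, Reln and Pdgfrb turned from positive to negative. Past both thresholds, 3 of 10 were called higher, against 13.8% of all genes tested, and 1 was called lower, against 15.4%. The middle of the 10 log2 fold changes was 0.87, against -0.03 over all genes, and -0.0022 under library size alone.

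Between P14 and P28, 5 genes fell (Acta2, Reln, Hand2, Des and Pdgfrb), Rgs5 rose and 4 did not pass the test. Of the 7 that had risen before, 3 fell (Reln, Hand2 and Pdgfrb). One gene was called lower (Acta2), against 5.98% of all genes, and 0 were called higher in edgeR, in DESeq2 or in limma, against 3.61% of all genes. In edgeR 1 gene had an unadjusted p below 0.05 upwards. Between P28 and adult, Lrat, Pdgfrb and Ngfr fell, 7 genes did not pass the test, and 0 were called in either direction in edgeR, in DESeq2 or in limma. In that interval 3 genes had an unadjusted p below 0.05, all downwards, and 0.767% of all genes were called higher and 2.24% lower.

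From E18 to adult, 3 of 10 were called higher (Rgs5, Lrat and Dcn), against 16.8% of all genes, and 2 were called lower (Gfap and Acta2), against 23.8%. The median of the 10 genes, -0.15, lay close to that of all genes, -0.11. The genes differed in their course. Of the 10, 7 had their highest mean at P14 under TMM, 2 at E18 (Gfap and Acta2) and 1 at P28 (Rgs5). By the deposited RPKM, which has no TMM scaling, Des, Reln and Pdgfrb had their highest mean at E18 instead. The ratio of the highest to the lowest stage mean under TMM ran from 1.85 for Des to 86.5 for Gfap.

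**Figure D1:**
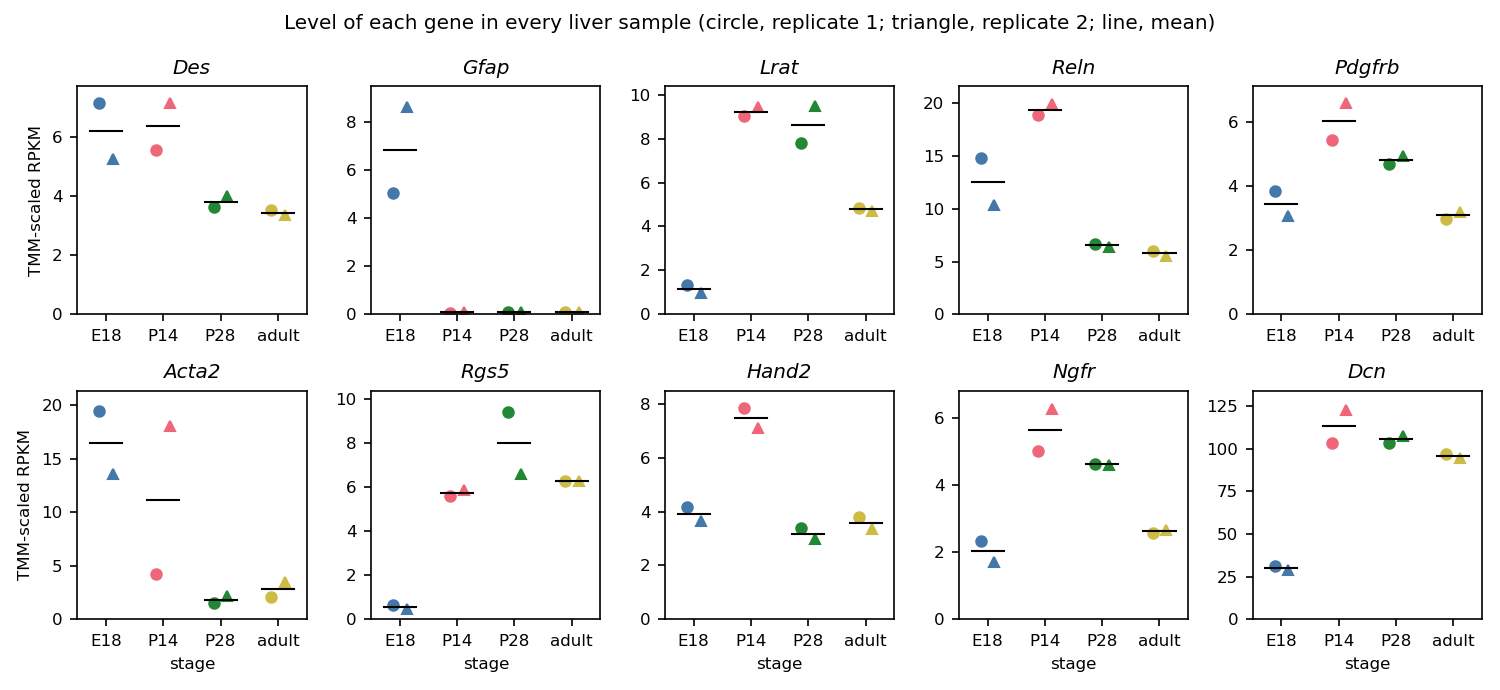
TMM-scaled RPKM (vertical axis, from 0, with its own range for each gene) of the 10 mesenchymal genes at the 4 stages; circles are replicate 1, triangles replicate 2 and black lines the mean of 2. Gfap stands at 5.06 and 8.62 at E18 and at 0.102 or less later, Lrat, Rgs5 and Dcn step up after E18, and the P14 duplicates of Acta2 lie at 4.23 and 18.1.

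**Figure D2:**
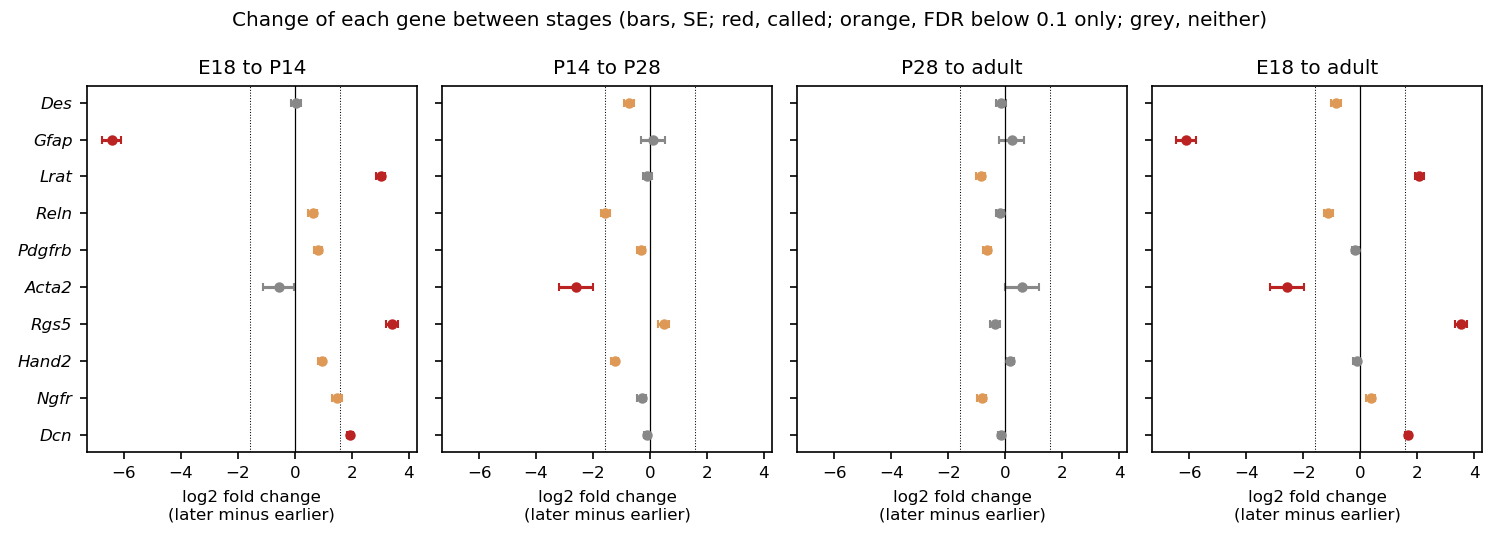
Log2 fold change (horizontal axis, later minus earlier) of each gene in the 3 successive intervals and from E18 to adult, with its SE as bars; dotted lines mark 3-fold, red points were called, orange points passed the FDR only and grey points did not pass. The changes past 3-fold lie in the comparisons with E18, apart from Acta2 between P14 and P28.

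The promoter windows of 4 genes with the steepest courses are shown for reference: Gfap and Acta2, called lower from E18 to adult, and Lrat and Rgs5, called higher. Each runs from 250 bases before to 50 bases after the transcription start given by RefSeq on GRCm38.p6, 5′ to 3′ on the gene's own strand, and capitals mark E-boxes (CANNTG, the 6-base core bound by bHLH proteins such as Hand2). Gfap is at chr11:102897151-102897450 on the minus strand, Acta2 at chr19:34255324-34255623 on the minus strand, Lrat at chr3:82903925-82904224 on the minus strand and Rgs5 at chr1:169655251-169655550 on the plus strand.
Gfap: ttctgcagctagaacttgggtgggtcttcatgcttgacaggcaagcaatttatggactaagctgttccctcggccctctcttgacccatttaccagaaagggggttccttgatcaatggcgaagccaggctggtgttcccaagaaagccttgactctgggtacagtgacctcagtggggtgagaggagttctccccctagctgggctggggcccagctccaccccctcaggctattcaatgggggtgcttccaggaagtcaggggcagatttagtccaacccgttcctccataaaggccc
Acta2: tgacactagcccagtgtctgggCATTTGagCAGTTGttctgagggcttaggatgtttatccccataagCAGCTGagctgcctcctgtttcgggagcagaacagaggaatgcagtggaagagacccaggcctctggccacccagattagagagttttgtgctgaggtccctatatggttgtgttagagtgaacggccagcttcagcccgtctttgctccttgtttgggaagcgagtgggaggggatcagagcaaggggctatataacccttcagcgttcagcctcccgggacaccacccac
Lrat: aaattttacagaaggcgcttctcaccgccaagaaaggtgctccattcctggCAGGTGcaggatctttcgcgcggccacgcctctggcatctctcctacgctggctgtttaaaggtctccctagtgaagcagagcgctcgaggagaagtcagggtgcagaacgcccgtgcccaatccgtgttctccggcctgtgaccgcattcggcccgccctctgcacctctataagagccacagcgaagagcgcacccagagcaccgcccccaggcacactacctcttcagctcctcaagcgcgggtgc
Rgs5: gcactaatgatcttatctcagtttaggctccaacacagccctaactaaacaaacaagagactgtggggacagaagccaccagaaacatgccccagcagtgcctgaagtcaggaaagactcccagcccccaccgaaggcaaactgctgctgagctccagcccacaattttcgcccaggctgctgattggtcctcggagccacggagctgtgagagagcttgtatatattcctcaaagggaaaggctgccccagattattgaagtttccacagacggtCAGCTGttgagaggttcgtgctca

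Windows of this length were found for 8 of the 10 genes. An E-box was present in 7 of the 8, against 72.3% of 32851 mouse promoters, with 3 in Acta2, 2 each in Des, Hand2 and Ngfr, 1 each in Lrat, Reln and Rgs5 and none in Gfap. In Acta2 the E-boxes start 228, 220 and 182 bases before the transcription start, and in Rgs5 the single match starts at base 27 after it. The strict CArG box (CC, 6 bases that are A or T, then GG), a consensus for sites of serum response factor, was in none of the 8 windows and in 1.63% of all promoters. TATAAA was also in none of the 8 and in 13.6% of all. The Acta2 window holds ccctatatgg and ccttgtttgg, each 1 base off the strict CArG box, and near matches were not counted. Both strands were searched. These are matches of letters only.

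Gene positions below are those of GENCODE M21 on GRCm38, since the files hold none. Lrat (chr3:82892579-82903973, minus strand), lecithin retinol acyltransferase, makes the retinyl esters that stellate cells store. The E18 samples held 1.32 and 0.959 TMM-scaled RPKM, the P14 samples 9.02 and 9.42, the P28 samples 7.81 and 9.48, and the adult samples 4.87 and 4.69. Both E18 samples lay below all later samples, and the P14 and P28 samples overlapped. Lrat rose 8.1-fold from E18 to P14 (log2 3.02 ± 0.16 SE, adjusted p = 2.88e-07) and was 2.15 on the log2 scale under library size alone. It did not differ detectably between P14 and P28 (-0.09 ± 0.15, adjusted p = 0.635) and fell by 0.86 ± 0.15 from P28 to adult (adjusted p = 0.0069). Adult liver still held 4.19-fold more than E18 liver under TMM. Under library size alone the increase from E18 to adult was 1.21 (log2), below 3-fold.

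The other genes of retinoid storage and metabolism moved in both directions. Of 19 tested, 9 were called higher and 6 lower from E18 to adult, with a median of 1.39. Rbp4, the plasma carrier of retinol made mainly by hepatocytes, rose from 673 ± 49.0 at E18 to 3127 ± 33.8 at P14 and was 3337 ± 431 in adult. Aldh1a1, which makes retinoic acid from retinaldehyde, rose in each of the first 2 intervals, from 2.17 ± 0.342 to 33.2 ± 9.39 and then to 513 ± 1.88. Its course differed from that of Lrat, which had reached its highest mean by P14. Dhrs3, a retinaldehyde reductase, rose from 13.7 ± 0.116 at E18 to 120 ± 1.81 at P28, and Plin2, a lipid droplet coat protein, rose from 52.8 ± 6.40 to 203 ± 5.10.

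Dcn (chr10:97479609-97518143, plus strand), decorin, is a small leucine-rich proteoglycan that binds collagen. It was the most abundant of the 10 genes at every stage, between the 90.7th and the 96.8th percentile of all genes tested. In TMM-scaled RPKM, E18 liver held 30.9 and 28.6, P14 liver 103 and 123, P28 liver 104 and 108, and adult liver 96.8 and 94.5. After a single step after E18, the 6 later samples stayed within 94.5 to 123. Dcn rose 3.80-fold from E18 to P14 (log2 1.93 ± 0.11, adjusted p = 4.38e-07), and the intervals from P14 to P28 (-0.10 ± 0.11, adjusted p = 0.48) and from P28 to adult (-0.14 ± 0.11, adjusted p = 0.417) did not pass. Over the longer span from P14 to adult it fell by 0.24 (adjusted p = 0.0829). Under library size alone the step after E18 was 1.06 (log2), which is 1 of the calls that this scaling removes.

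Of 8 other genes of the proteoglycan family tested, 3 were called higher and 1 lower from E18 to adult, with a median of 0.17 that was -0.68 under library size alone. Bgn, biglycan, rose 3.70-fold to P14, from 23.6 ± 0.948 at E18 to 87.2 ± 17.3, and stood at 53.1 ± 1.82 in adult. Prelp rose 5.79-fold from E18 to adult. Lum, lumican, fell by 1.42 (log2) over the same span, from 16.2 ± 0.492 to 6.07 ± 0.244. Omd, osteomodulin, fell by 1.87 to P14 and then rose in both later intervals, to 6.21 ± 0.996 in adult. Kera had 0 reads at P28 and in adult, and Epyc had 0 reads from P14 on.

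Reln (chr5:21884454-22344702, minus strand) encodes reelin, a large secreted glycoprotein that stellate cells make in the liver. Its duplicates stood at 14.8 and 10.3 for E18, 18.9 and 19.9 for P14, 6.65 and 6.4 for P28, and 6.04 and 5.5 for adult liver (TMM-scaled RPKM). The P14 samples were the highest and all P28 and adult samples lay below both E18 samples. Reln rose by 0.62 ± 0.15 (log2) from E18 to P14 under TMM (adjusted p = 0.00483), whereas under library size alone the value was -0.25 (adjusted p = 0.174). It fell by 1.57 ± 0.16 from P14 to P28 (adjusted p = 8.44e-05), which is 2.97-fold and just short of a call, and by 1.75 from P14 to adult, 3.36-fold and called. P28 and adult did not differ detectably (-0.18 ± 0.15, adjusted p = 0.492). The antisense gene Gm10475 overlaps exons of Reln over 125 bases, and since the use of strand in the counting is not stated, reads there could come from either.

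The receptors and the adaptor of reelin were at low levels. Lrp8, a reelin receptor, fell by 5.47 (log2) from E18 to P14, from 1.60 ± 0.161 to 0.036 ± 0.0054 TMM-scaled RPKM. Vldlr, the other receptor, stood at 2.05 ± 0.592 at E18 and at 0.754 ± 0.323 in adult, and was called lower from P28 to adult. Dab1, the intracellular adaptor, stood at 0.524 ± 0.0757 at E18 and fell by 1.26 from P14 to P28. From E18 to adult, 1 of the 3 was called lower and 0 were called higher in edgeR, with 0 at an unadjusted p below 0.05 upwards. Their median was -1.45.

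Des (chr1:75360329-75368579, plus strand), desmin, is the muscle-type intermediate filament protein that marks rodent stellate cells. The E18 samples held 7.15 and 5.24 TMM-scaled RPKM, the P14 samples 5.55 and 7.15, the P28 samples 3.61 and 3.99, and the adult samples 3.54 and 3.34. Each of the 4 samples of the early stages lay above each of the 4 later ones. No difference was detected between E18 and P14 under TMM (0.04 ± 0.17, adjusted p = 0.861), and under library size alone Des fell by 0.84 (adjusted p = 0.0021). It fell by 0.74 ± 0.18 from P14 to P28 (adjusted p = 0.00867) and by 0.85 ± 0.18 from E18 to adult (adjusted p = 0.00178), both short of 3-fold. An exon of Gm15179, an antisense gene, overlaps Des over 220 bases, and since the counting is not stated to use strand, reads of this stretch cannot be assigned.

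Gfap (chr11:102887336-102900912, minus strand), glial fibrillary acidic protein, is the intermediate filament protein of astrocytes and is also used as a marker of quiescent stellate cells. Its levels were 5.06 and 8.62 at E18 and between 0.0563 and 0.102 in the 6 later samples. In reads this was 2857 and 4296 at E18 against 21 and 37 in the P14 pair, 30 and 22 in the P28 pair, and 23 and 27 in the adult pair. The E18 samples stood far above all others, P14 and P28 overlapped, and the adult samples lay just above P28. Gfap fell by 6.43 ± 0.34 (log2) from E18 to P14, which is 86.3-fold (adjusted p = 2.87e-07), and then changed by no detectable amount from P14 to P28 (0.09 ± 0.42, adjusted p = 0.877) or from P28 to adult (0.23 ± 0.44, adjusted p = 0.784). It ranked 4th of the 10 genes at E18 and 10th at each later stage. After birth it was at the 10.9th to 16th percentile of genes tested, whereas in adult liver the percentiles of Des and Dcn were 51.6 and 95.2.

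Gfap also differed from the rest in its duplicates. At E18, 9 of the 10 genes were higher in replicate 1, by 1.08-fold to 1.43-fold, and Gfap alone was higher in replicate 2, by 1.71-fold, a gap exceeded by 1.42% of the genes tested. Of all genes compared by the shape of their 8 values, the nearest to Gfap was Clps, pancreatic colipase (root mean square difference 0.13 on the log2 scale, r = 0.998 over 8 samples that share 1 split between E18 and later stages). Clps had 1510 and 2904 reads at E18 and 0 to 4 reads in each later sample, and was 2.18-fold higher in E18 replicate 2. The list of pancreatic acinar markers summed to 200 and 447.3 TMM-scaled RPKM in the E18 replicates. Without Cela1, which rose after birth to 101 ± 9.04 in adult, its other 7 genes summed to 191.1 and 434.7 at E18, to 6.92 and 6.91 at P14, and to 0.273 or less in each later sample.

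All 8 acinar markers were higher in E18 replicate 2, by 1.40-fold to 2.85-fold, and 7 of 8 were called lower from E18 to P14. Ctrb1, chymotrypsinogen B1, stood at 80 and 223 in the E18 duplicates. Erythroid markers (7 of 7) and Kupffer cell markers (8 of 8) were also higher in that replicate, with medians of 1.28-fold and 1.39-fold, whereas all 8 endothelial markers were lower in it. The glial and nerve markers summed to 6.69 and 6.45 at E18, of which Mbp made 5.45 ± 0.0291, and to 1.95 or less later. In order of likeness to Gfap among 13194 genes, by the same measure and with the same limit, the erythroid gene Alas2 was 21st and Mbp 86th. The part of any of these in the level of Gfap was not tested. With each of the 8 samples left out in turn, the log2 fold change of Gfap from E18 to P14 lay between -6.9 and -5.98.

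**Figure D3:**
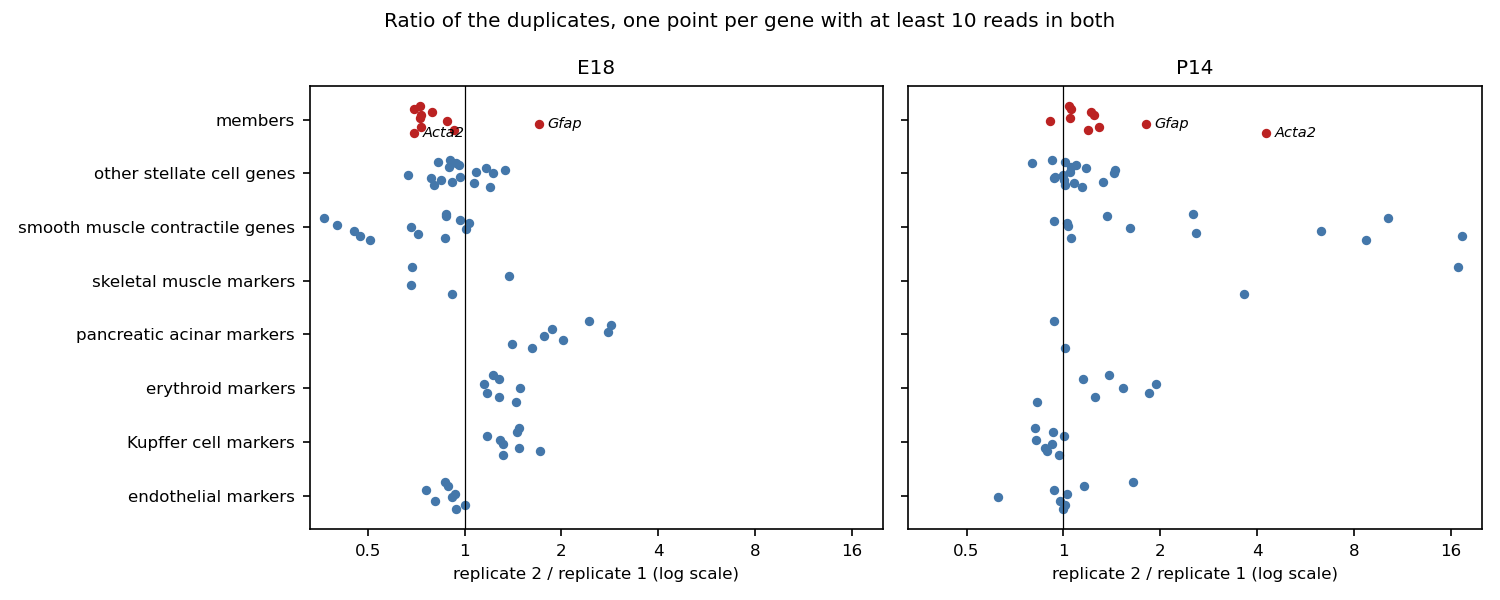
Ratio of replicate 2 to replicate 1 (horizontal axis, log scale) at E18 and at P14, with 1 point per gene of each list that has at least 10 reads in both samples; red points are the 10 mesenchymal genes. At E18, Gfap lies to the right of 1 with the pancreatic acinar, erythroid and Kupffer cell markers, and at P14 Acta2, at 4.27, lies with part of the smooth muscle genes.

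Of the 4 other intermediate filament genes of mesenchyme tested, 3 were called lower from E18 to adult, with a median of -2.15. Vim, vimentin, fell in all 3 intervals, from 58.1 ± 3.45 at E18 to 9.72 ± 0.610 in adult. Nes, nestin, was called lower from E18 to adult (3.28-fold), as was Prph, peripherin (10.2-fold). Synm, synemin, which joins desmin filaments, rose by 1.03 over the same span but stayed at 0.402 ± 0.00873 or less.

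Acta2 (chr19:34241090-34255590, minus strand), smooth muscle alpha-actin, marks vascular smooth muscle and stellate cells that have become myofibroblasts. In TMM-scaled RPKM, E18 liver held 19.5 and 13.6, P14 liver 4.23 and 18.1, P28 liver 1.47 and 2.19, and adult liver 2.07 and 3.48. The E18 samples were high and the P28 and adult samples low, and the P14 duplicates fell apart, 1 among the E18 values and the other nearer to the later ones. Acta2 fell by 2.57 ± 0.59 (log2) from E18 to adult, 5.94-fold (adjusted p = 0.00293), and by 2.61 ± 0.60 from P14 to P28 (adjusted p = 0.00691). From E18 to P14 the value was -0.57 ± 0.54 (adjusted p = 0.365), from P28 to adult 0.61 ± 0.60 (adjusted p = 0.554). The actin genes are near-identical in coding sequence, and how reads that match several of them were counted is not stated.

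The 4.27-fold gap between the P14 duplicates of Acta2 was exceeded by 0.12% of genes tested. Without P14 replicate 2, Acta2 fell by 1.95 from E18 to P14 (adjusted p = 0.00168, called), and its fall from P14 to P28 was 1.22 (adjusted p = 0.0268, not called). The interval in which Acta2 is called lower thus rests on 1 library. The nearest gene to Acta2 in shape was Cnn1, calponin, with 23 and 389 reads in the P14 duplicates (root mean square difference 0.348, r = 0.965 over 8 samples). Of 12 smooth muscle contractile genes with at least 10 reads in both, 11 were higher in P14 replicate 2, 6 of them by more than 2-fold and up to 17.4-fold. The skeletal muscle markers summed to 0.86 in P14 replicate 1 and 7.20 in replicate 2, and Krt19, a bile duct keratin, stood at 4.61 ± 3.98 at P14. The part of these in the level of Acta2 at P14 was not tested.

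Smooth muscle contractile genes differed in direction. Of 13 tested, 7 were called lower and 0 higher in edgeR from E18 to adult (2 at an unadjusted p below 0.05 upwards), with a median of -2.0. From E18 to P14, 3 were called lower, and 5 without P14 replicate 2. From P14 to P28, 4 were called lower, and 0 without that sample, when 5 still passed the FDR downwards. Myl9, a regulatory myosin light chain, fell from 30.9 ± 0.195 at E18 to 3.97 ± 0.0491 in adult. Tagln, transgelin, fell from 14.9 ± 1.41 to 9.97 ± 1.21 over that span. Cald1, caldesmon, and Mylk, myosin light chain kinase, rose 2.74-fold and 2.85-fold from E18 to adult, and both genes also have forms outside smooth muscle. With Cald1 at 95.3 ± 7.12 in adult, the 13 genes summed to 130.1 and 144.1 there, against 135.2 and 114.0 at E18.

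Pdgfrb (chr18:61045150-61085061, plus strand), the receptor that binds PDGF-B, is a general marker of pericytes and stellate cells. Its duplicates stood at 3.85 and 3.05 for E18, 5.42 and 6.59 for P14, 4.68 and 4.94 for P28, and 2.96 and 3.19 for adult liver (TMM-scaled RPKM). The samples of P14 and P28 lay above those of E18 and adult, which overlapped. Pdgfrb rose by 0.80 ± 0.14 (log2) from E18 to P14 (adjusted p = 0.000602), with a value of -0.07 under library size alone, and fell in both later intervals, by 0.32 ± 0.14 (adjusted p = 0.0844) and by 0.64 ± 0.14 (adjusted p = 0.0169). E18 and adult did not differ detectably under TMM (-0.16 ± 0.14, adjusted p = 0.295), and under library size alone the value was -1.02 (adjusted p = 0.000169).

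The ligands took separate courses. Pdgfb fell 5.73-fold from E18 to adult, from 1.86 ± 0.0391 to 0.324 ± 0.0200, and was the 1 gene called among the 5 other PDGF genes. Pdgfa rose by 1.35 (log2), from 2.15 ± 0.113 to 5.49 ± 0.601. Pdgfc rose to 2.99 ± 0.354 at P28 and then fell to 1.40 ± 0.251 in adult. Pdgfra, the other receptor of the family, fell by 1.07 from E18 to adult. The median of the 5 genes was -0.61.

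Ngfr (chr11:95568818-95587735, minus strand), the low-affinity neurotrophin receptor p75, is present on stellate cells and portal fibroblasts as well as on nerve. The E18 samples held 2.34 and 1.72 TMM-scaled RPKM, the P14 samples 5.02 and 6.27, the P28 samples 4.64 and 4.59, and the adult samples 2.58 and 2.66. As for Pdgfrb, the P14 and P28 samples lay above those of E18 and adult, and the 2 genes were each other's nearest within the 10 (root mean square difference 0.27, r = 0.926 over 8 samples), though 98 genes came nearer to Ngfr and 301 to Pdgfrb. Ngfr rose by 1.47 ± 0.16 (log2) from E18 to P14 (adjusted p = 3.8e-05), 2.78-fold, and fell by 0.82 ± 0.16 from P28 to adult (adjusted p = 0.0129). From E18 to adult it rose by 0.37 under TMM (adjusted p = 0.0673), but the value was -0.49 (adjusted p = 0.0267) under library size alone.

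Among 8 neurotrophin genes and other receptors, 3 were called higher and 3 lower from E18 to adult, with a median of 0.26 that was -0.59 under library size alone. Ntrk2, the BDNF receptor, rose from 0.0664 ± 0.0278 to 7.59 ± 0.0414 at P14, fell to 2.93 ± 0.00690 at P28 and rose again 4.44-fold to adult. Sort1, sortilin, stood at 6.50 ± 0.987 at E18 and fell 1.61-fold from P28 to adult. Ntf3 stood at 0.462 ± 0.0849 or less at every stage.

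Rgs5 (chr1:169655501-169695813, plus strand), a regulator of G-protein signalling typical of pericytes, had the steepest rise of the 10 genes. In TMM-scaled RPKM, E18 liver held 0.621 and 0.452, P14 liver 5.6 and 5.85, P28 liver 9.41 and 6.56, and adult liver 6.26 and 6.24. Both E18 samples lay far below the rest, and it was the only gene of the 10 with its highest mean at P28. Rgs5 rose 10.6-fold from E18 to P14 (log2 3.41 ± 0.21, adjusted p = 7.93e-07) and 1.40-fold from P14 to P28 (adjusted p = 0.0622). From P28 to adult it was -0.35 ± 0.19 (adjusted p = 0.253). Its rise from E18 to adult was 3.54 ± 0.21. Among the 10 genes it was the only upward call of that span that library size alone kept, at 2.68. From E18 to P14 that scaling kept the upward calls of Lrat (2.15) and Rgs5 (2.54).

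Of 8 other pericyte genes tested, 1 was called higher and 2 lower from E18 to adult, with a median of -1.04. Kcnj8 and Abcc9, the subunits of a pericyte potassium channel, both rose from E18 to P14, 5.82-fold and 2.58-fold. Mcam, an adhesion molecule of vessel walls, did not pass the test from E18 to P14 (0.05, adjusted p = 0.772) and fell 3.80-fold from P14 to P28. Ndufa4l2, a mitochondrial protein, fell 2.62-fold from E18 to adult.

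Hand2 (chr8:57320983-57324633, plus strand) encodes a bHLH transcription factor of liver mesenchyme that is kept in stellate cells. Its duplicates stood at 4.16 and 3.67 for E18, 7.85 and 7.13 for P14, 3.38 and 2.97 for P28, and 3.81 and 3.36 for adult liver (TMM-scaled RPKM). Only the P14 samples stood out, and E18, P28 and adult lay within 2.97 to 4.16. Hand2 rose by 0.94 ± 0.13 (log2) from E18 to P14 (adjusted p = 0.000162), with 0.07 (adjusted p = 0.65) under library size alone, and fell by 1.24 ± 0.13 from P14 to P28 (adjusted p = 0.000127). Between E18 and adult the difference was -0.13 ± 0.13 (adjusted p = 0.39). The noncoding gene Hand2os1 overlaps its exons over 246 bases on the opposite strand, and the same limit on strand holds.

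A list of 17 other genes known from stellate cells served as a comparison. From E18 to P14, 10 were called higher and 0 lower in edgeR, with 15 passing the FDR upwards and 0 at an unadjusted p below 0.05 downwards, and their median was 2.13. Ecm1, extracellular matrix protein 1, rose from 3.79 ± 0.447 to 76.1 ± 0.0625, and Steap4, a metalloreductase, from 4.40 ± 0.188 to 62.1 ± 9.92. Colec11, a collectin, rose 6.90-fold to 80.1 ± 4.15 and then fell in both later intervals to 33.9 ± 3.48. From P14 to P28, 13 of the 17 passed the FDR downwards and 1 upwards. The median from E18 to P14 was 1.26 under library size alone, so its direction held. Over the whole span from E18 to adult, 5 were called higher and 1 lower, with a median of 1.23 that was 0.38 under library size alone.

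Matrix and fibrosis genes were highest as a sum at P14, at 949.2 and 1093. From E18 to P14, 5 of 17 were called higher and 1 lower, with a median of 0.70 that was -0.17 under library size alone. From P14 to P28, 17 of 17 passed the FDR downwards and 8 were called lower. From P28 to adult, 11 passed downwards and 7 were called lower, at a time when 3 of the 10 mesenchymal genes fell and none was called. Sparc rose from 81.9 ± 4.35 at E18 to 331 ± 30.9 at P14 and fell to 41.2 ± 4.33 in adult. Col3a1, a fibrillar collagen, went from 41.6 ± 5.10 to 124 ± 34.0 and then to 7.69 ± 1.15, while Dcn stayed at 95.7 ± 1.64 in adult. Fn1, fibronectin, which hepatocytes also make in quantity, ended higher in adult than at E18, by 2.08-fold.

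**Figure D4:**
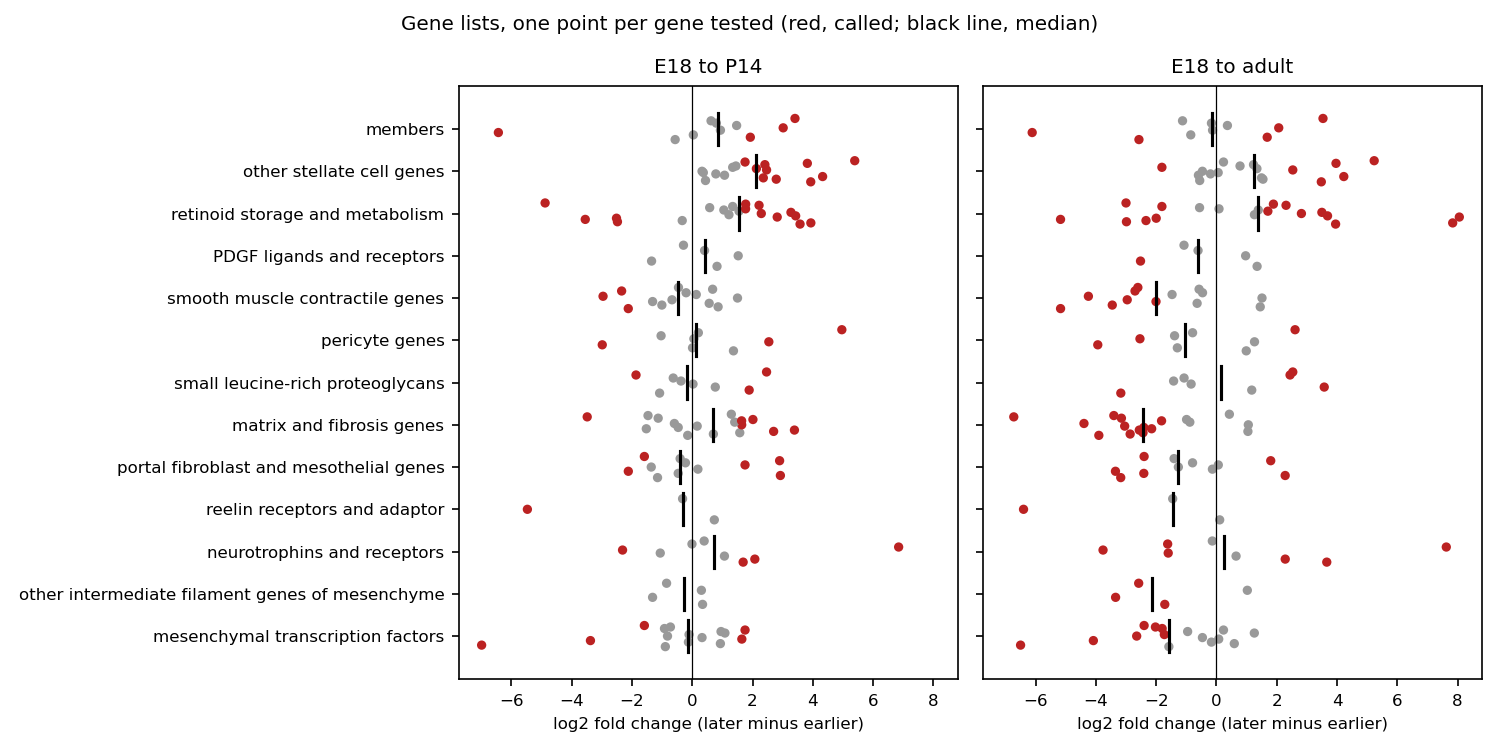
Log2 fold change (horizontal axis, later minus earlier) from E18 to P14 and from E18 to adult for the 10 mesenchymal genes and 12 related lists, with 1 point per gene tested, called genes in red and the list's median as a black line. The other stellate cell genes have a median of 2.13 from E18 to P14, and the smooth muscle and the matrix genes have medians of -2.0 and -2.43 from E18 to adult.

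Within the 10 genes, shapes lay less near to each other than to many genes outside. Lrat and Dcn were each other's nearest (root mean square difference 0.456, r = 0.973), with 262 genes nearer to Lrat and 1905 nearer to Dcn. Des and Hand2 were nearest at 0.362, with 1747 genes nearer to Des and 635 nearer to Hand2. Gfap was the farthest from the rest, with its nearest, Acta2, at 1.603. Reln lay nearest to Qpct (0.079), a glutaminyl cyclase, and Dcn to Enpp1 (0.07), an ectonucleotidase. Lrat lay nearest to Rtn4rl1 (0.17), Des to Hoxb2 (0.105), Ngfr to Slc26a10 (0.125), Pdgfrb to 2510009E07Rik (0.089), Rgs5 to LOC547349 (0.135) and Hand2 to 6530402F18Rik (0.122). These are descriptions over 8 samples and 13195 genes.

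Other non-parenchymal cell lists changed over the same stages. The endothelial markers summed to 65.4 and 58.2 in the E18 duplicates, 169.6 and 166.9 at P14, 95 and 98.4 in the P28 pair, and 79.4 and 66.8 in the adult pair. Of these 8 genes, 6 had their highest mean at P14 under TMM, led by Clec4g (88.2 ± 0.753), and 2 at E18, namely Lyve1 and Vwf. The sum of the Kupffer cell markers stood at 316.2 and 262.7 at P28 and overlapped P14 at 289.9 and 264.7. Of these 8 genes, 5 had their highest mean at P28 under TMM, Timd4 had it at P14, and Marco and Emr1 had it at E18. Cholangiocyte markers lay between 27.1 and 34.0 at E18 and between 43.3 and 64.5 later. Neutrophil markers summed to 819.3 and 1026 at E18 and to 4.4 or less from P28 on. The part of the liver's changing cell make-up in the courses of the mesenchymal genes was not tested.

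**Figure D5:**
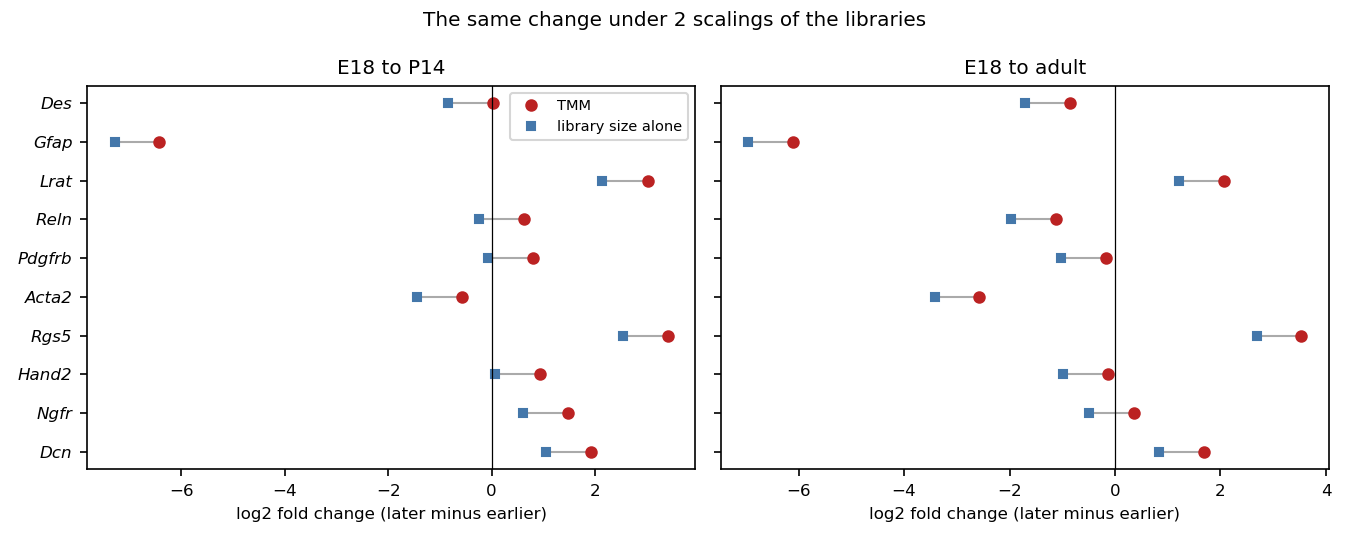
Log2 fold change (horizontal axis, later minus earlier) of the 10 genes from E18 to P14 and from E18 to adult under TMM (circles) and under library size alone (squares). Each gene moves left by about the shift of the median gene, -0.87 and -0.85, and Des, Reln and Pdgfrb cross 0 from E18 to P14 and Ngfr from E18 to adult.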

How the data were processed

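RNA of 8 whole livers of FVB (FVB/NJ in the methods) mice, 2 at each of 4 stages, was analysed, with stage and replicate taken from the sample labels. Paired 100 bp reads were mapped by the authors to genome and transcriptome with a method published before, and they deposited raw counts of reads per gene for 22059 gene symbols. They also deposited RPKM, computed by the authors as counts divided by transcript length in kilobases and by mapped reads in units of 1000000. The submitters' processing notes name the build mm9. The aligner, the counter and the use of strand are not given in the sources used here. RNA isolation is given as Trizol in the labels and as a column kit in the methods.

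Dividing counts by RPKM gave whole lengths for all 22059 genes and totals of 73844259 to 112713530 reads per sample. Duplicates differed by more than sampling noise (chi-square per degree of freedom 39.9 to 79.2). Counts were filtered with filterByExpr, scaled by TMM and fitted with edgeR (version 4.0.16) with 1 coefficient per stage over all 8 samples, and stages were compared with glmQLFTest. Each SE was the absolute log2 change divided by the square root of F. The fits were tested on simulated data. The alternatives were other filters, scalings and thresholds, DESeq2 (version 1.42.0), limma (version 3.58.1) on log2(RPKM + 0.1) and log2(RPKM + 1), a replicate block, the 2 stages alone and each sample left out. Library size scaling of the related lists and the smooth muscle list without P14 replicate 2 were added after seeing the data.

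The 10 genes, the related lists and the cell type markers were chosen with earlier results of these data known. From each list at most the 4 genes with the highest mean level were named, with genes at 0 reads throughout a stage. For each of the 10 genes the gene of most similar shape was named, that is the lowest root mean square difference of the 8 centred log2(CPM + 0.5) values among genes with a mean CPM of at least 1. A few genes of these lists enter the counts and medians but are not reported here by name. Gene overlaps came from GENCODE M21 on GRCm38 and promoters from RefSeq on GRCm38.p6. Protein sequences were not used here, so the planned identities of Des, Gfap and Vim were not computed. Splicing was not analysed here. Software was R 4.3.3, Python 3.11.15, pandas 2.3.3, numpy 2.4.6 and matplotlib 3.10.9.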

Additional observations from a re-analysis of the deposited data

How the results depend on the processing

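Of 760 values of single genes under alternatives, 708 kept their direction and their side of the thresholds, 18 gained a call, 11 lost one and 23 changed sign. Of the genes called higher from E18 to adult, 1 in place of 3 was left with library size alone and with limma on RPKM at either pseudocount, 2 with at least 10 counts in every sample (Dcn at 1.55, below 3-fold), and 4 in place of 2 were called lower with library size alone and with limma at a pseudocount of 0.1. Called lower from E18 to P14 were 2 in place of 1 with limma at a pseudocount of 0.1, and 1 to 2 with single samples left out. Called lower from P14 to P28 were 2 in place of 1 with no filter on low counts, with at least 10 counts in every sample and with limma at a pseudocount of 0.1, 3 at 2-fold, and 0 to 2 with single samples left out, 0 being without P14 replicate 2.

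The sign of Ngfr from E18 to adult was -0.49 with library size alone and -0.47 and -0.35 with limma at pseudocounts of 0.1 and 1. From E18 to P14, in the same order, Des was -0.84, -0.80 and -0.71, Reln -0.25, -0.21 and -0.20, and Pdgfrb -0.071, -0.052 and -0.045. Des was also -0.069 with at least 10 counts in every sample and -0.005 with median-ratio scaling and with DESeq2. With single samples left out, sign changes lay within ranges of -0.32 to 0.013 for Pdgfrb from E18 to adult, -0.16 to 0.28 for Des and -1.95 to 0.14 for Acta2 from E18 to P14, and -0.28 to 0.57 for Gfap, -0.24 to 0.036 for Lrat and -0.22 to 0.027 for Dcn from P14 to P28, with 0 of the values of changed sign past the FDR. List medians that changed sign with library size alone were, from E18 to P14, PDGF genes (-0.46), pericyte genes (-0.74), matrix genes (-0.17) and neurotrophin genes (-0.14), and from E18 to adult proteoglycans (-0.68) and neurotrophin genes (-0.59). The scaling itself sets these shifts.

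The replicate numbers did not pair the samples (correlations of same-numbered deviations from -0.296 to 0.116). With the replicate block, all 40 gene results kept their call, and the counts called from E18 to adult stayed at 3 higher and 2 lower. With 2 samples a stage, changes the size of the spread between duplicates are uncertain even where they passed the test. An example is Rgs5 from P14 to P28, at 1.40-fold with P28 duplicates 1.43-fold apart. Gfap after birth rests on 21 to 37 reads per sample.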

Other observations

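Genes of portal fibroblasts and of the mesothelium, the cell layer that covers the liver, differed in direction. Of 11 tested, 2 were called higher and 4 lower from E18 to adult, with a median of -1.26. Entpd2, an ectonucleotidase of portal fibroblasts, rose from 0.610 ± 0.0269 at E18 to 4.64 ± 0.193 at P14 (7.59-fold). Msln, mesothelin, rose 3.37-fold to 4.68 ± 0.0114 at P14 and stood at 1.45 ± 0.165 in adult. Upk3b, also mesothelial, fell by 1.40 (log2) from E18 to adult. Cd34 fell 9.02-fold over the same span, from 7.59 ± 0.486 to 0.838 ± 0.156.

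Of 15 transcription factors of mesenchyme tested, 7 were called lower from E18 to adult and 0 higher in edgeR, with 2 at an unadjusted p below 0.05 upwards, and their median was -1.58. Tcf21, a bHLH factor like Hand2, had its highest level at P14 as Hand2 did, with 5.70 ± 0.775, 19.2 ± 0.196, 9.11 ± 0.106 and 6.72 ± 0.608 TMM-scaled RPKM from E18 to adult. Gata4 stood at 5.91 ± 0.360 at E18 and at 11.3 ± 0.694 at P14, and Nr2f2 rose 2.12-fold in that interval. Gata6 passed the test in none of the 3 intervals, with levels from 2.92 ± 0.0669 to 3.36 ± 0.392. Foxf2 and Tbx18 had 0 reads in both P28 samples. Adipoq, the 1 adipocyte marker tested, stood at 0.201 ± 0.0274 or less at every stage.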
